A study of Homo sapiens with 12 samples.

Results

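The 32 genes described here act at the transition from G1 to S phase and in DNA replication. They were given as a list of names, and each was looked up in the deposited gene tables by its Ensembl identifier; all 32 were found among 60708 gene identifiers. The tables came from mRNA sequencing of hTERT RPE-1, a telomerase-immortalised human cell line derived from retinal pigment epithelium. LmnB1_6 and LmnB1_16 were clones that overexpressed lamin B1, which forms filaments under the nuclear envelope, fused to the red fluorescent protein mCherry. The controls mCherry_3 and mCherry_4 were clones that overexpressed mCherry alone. Each of the 4 clones gave 3 libraries labelled as biological replicates, 12 in all. Every culture, controls included, was grown with hygromycin B and exposed for 24 hours to doxycycline at 0.05 ug/mL. A construct was thus represented by 2 clones, and each line was 1 clone. The promoter of the constructs was not given in the sources used here.

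Before a cell can replicate its DNA, ORC, CDC6 and CDT1 load the MCM helicase onto origins during G1, a step called licensing. Cyclin E with CDK2 and the kinase DBF4-CDC7 then turn the loaded helicase on, with CDC45 and the GINS complex as its partners, and polymerases, the sliding clamp PCNA and its loader RFC copy the strands. Transcription of most of these genes is driven by E2F factors, which the retinoblastoma protein and its relatives hold back in resting cells and in early G1, so their mRNA is known as a marker of cycling cells. Lamin B1 mRNA is itself known to be low in senescent cells.

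Total estimated counts were 20598852 to 29477253 per library, and mitochondrial transcripts took 2.06% to 2.69% of them. LMNB1, the gene carried by the construct, averaged 3976 ± 164 CPM in LmnB1_6, 3374 ± 273 in LmnB1_16, 84.98 ± 7.12 in mCherry_3 and 161 ± 7.29 in mCherry_4 (mean ± SD, n = 3 each), which matched the labels. CPM are counts relative to the scaled total of each library. For the cell type markers and for the genes that share exon bases the total was not scaled. Of 12 pigment epithelium markers, 4 had a mean of at least 1 CPM, with MITF at 35.003 and RDH5 at 10.3 CPM, whereas the differentiation markers RPE65, TYR, DCT and TTR had 0 counts in all libraries. The summed level of these 12 markers was 11.6 to 12.4 CPM in LmnB1_6, 41.2 to 45.7 in LmnB1_16, 81.8 to 91.6 in mCherry_3 and 56.7 to 66.2 in mCherry_4. KRT8 and KRT18 were present (means of 425 and 457 CPM), CDH1 and EPCAM were near 0 (0.0104 and 0.0035 CPM), and these 4 genes with KRT19 summed to 576 to 642 CPM in LmnB1_6, 778 to 812 in LmnB1_16, 1227 to 1351 in mCherry_3 and 817 to 877 in mCherry_4. The 6 fibroblast markers summed to 259 to 354 CPM over the libraries, above the pigment epithelium markers in every clone. Most of that came from THY1 and COL1A1 (means of 239 and 59.4 CPM). The 4 leukocyte and 4 endothelial markers summed to at most 0.441 and 2.71 CPM. The part of these differences in the results on replication genes was not tested.

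All 32 genes passed the filter on low counts. Deposited TPM, which are scaled by transcript length and so allow levels of different genes to be compared, ran from 10.2 for CCNE1 (cyclin E1) and 14.9 for POLA1 (the catalytic subunit of DNA polymerase alpha) to 296 for PCNA and 445 for RRM2, the small subunit of ribonucleotide reductase (means over 12 libraries). TYMS (thymidylate synthase, 217 TPM) and MCM7 (216 TPM) came next below PCNA. The GINS subunits lay between 19.97 TPM for GINS3 and 40.1 TPM for GINS4.

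The clone mCherry_3 had the lowest level of most of these genes. Its mean was the lowest of the 4 clones for 28 of the 32 genes, against 31.9% of all 15388 genes tested. LmnB1_16 had the highest mean for 24 of the 32 genes, against 21.7% of all genes tested. On a log2 scale centred on the mean of the 12 libraries, the 32 genes averaged 0.11 ± 0.12 in LmnB1_6, 0.20 ± 0.03 in LmnB1_16, -0.33 ± 0.09 in mCherry_3 and 0.01 ± 0.04 in mCherry_4 (SD, n = 3). The mCherry clones thus stood further apart from each other than mCherry_4 stood from either LmnB1 clone. In such bulk libraries fewer cells in S phase and less mRNA per cell cannot be told apart.

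**Figure D1:**
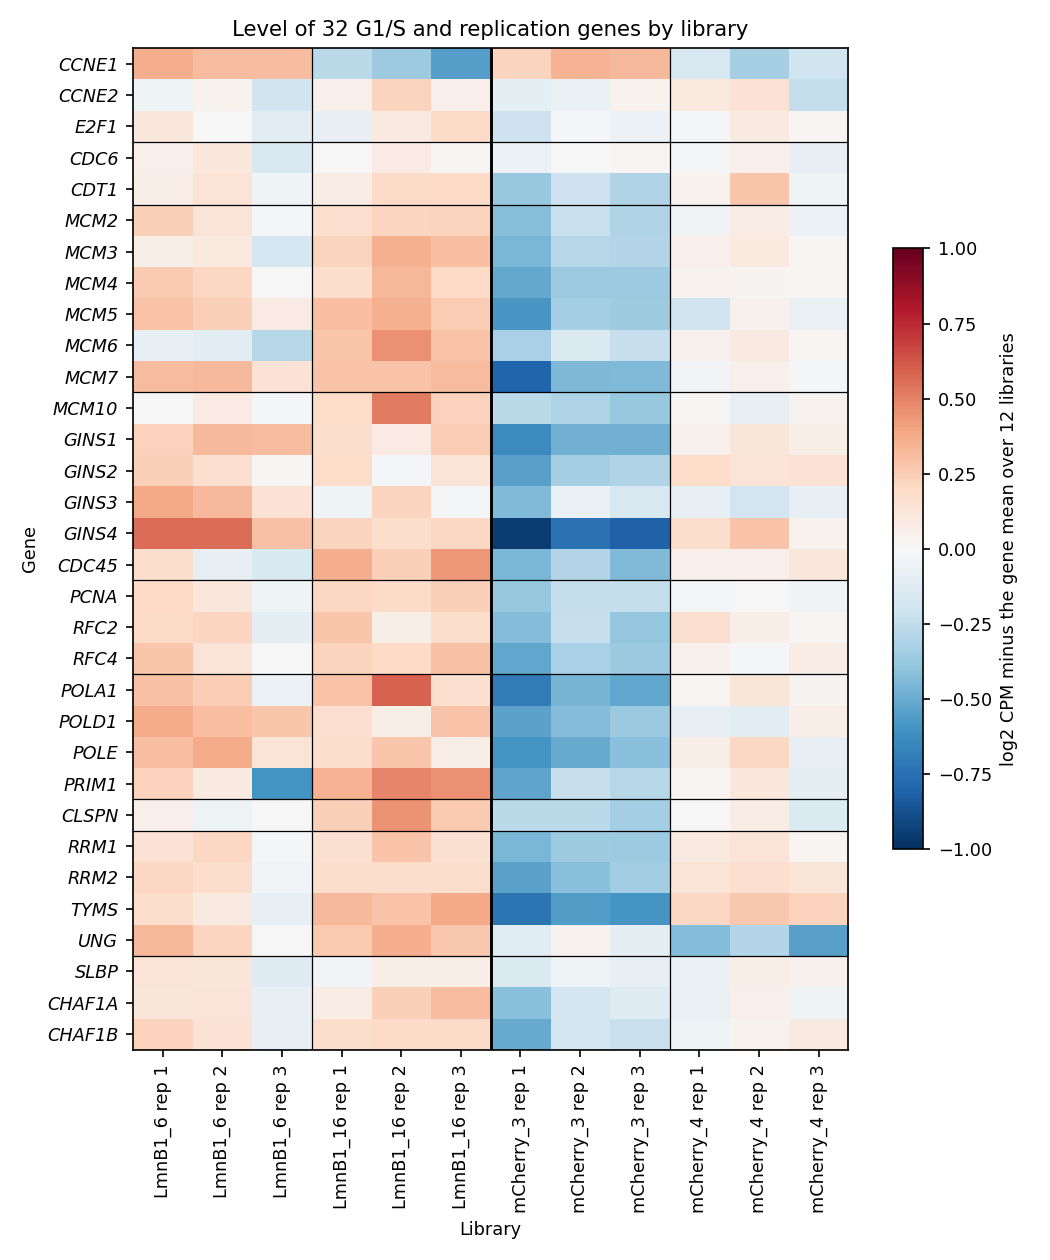
Level of the 32 genes (rows, grouped by role) in each of the 12 libraries (columns), as log2 CPM minus the mean of the gene over all libraries; red is above and blue below that mean. The 3 mCherry_3 libraries are blue in nearly every row, and the rows of CCNE1, CCNE2, E2F1, CDC6 and SLBP vary in other ways or hardly at all.

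In 23 of the 32 genes every mCherry_3 library was below every library of the other 3 clones, a pattern seen in 13.8% of all genes tested. Every LmnB1_16 library was above all others in 7 genes (MCM3, MCM6, MCM10, CDC45, TYMS, PRIM1 and CLSPN), against 4.09% of all genes. LmnB1_6 stood above all others in GINS4 alone (10.9% of all genes), and mCherry_4 stood below all others in UNG alone (2.10% of all genes). None of the 32 had every LmnB1_6 library below all others (12.3% of all genes), every LmnB1_16 library below (4.43%), every mCherry_3 library above (13.7%) or every mCherry_4 library above (3.28%).

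To show what lies upstream of these genes, the 250 bases before the RefSeq transcription start (GRCh38.p14) are printed for the 4 genes with the smallest adjusted p in the construct comparison below that have an entry (UNG, POLD1, MCM7 and PCNA) and for the 2 genes with an entry that were furthest from the threshold (CCNE1 and CDC6). Where RefSeq gives several starts the first window is shown, and the second window of UNG was added after its match had been seen. The sequences run 5′ to 3′ on the strand of the gene and end at the base before the start. Capitals mark the letters of an E2F site, searched as TTTGGCGC, TTTCCCGC, TTTCGCGC and TTTGCCGC on both strands.
UNG first start (chr12:109097347-109097596, plus strand): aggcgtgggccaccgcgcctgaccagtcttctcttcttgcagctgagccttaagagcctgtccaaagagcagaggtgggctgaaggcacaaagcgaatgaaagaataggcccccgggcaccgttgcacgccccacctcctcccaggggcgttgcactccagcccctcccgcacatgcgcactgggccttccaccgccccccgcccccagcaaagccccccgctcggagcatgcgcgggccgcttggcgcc
UNG second start (chr12:109097922-109098171, plus strand): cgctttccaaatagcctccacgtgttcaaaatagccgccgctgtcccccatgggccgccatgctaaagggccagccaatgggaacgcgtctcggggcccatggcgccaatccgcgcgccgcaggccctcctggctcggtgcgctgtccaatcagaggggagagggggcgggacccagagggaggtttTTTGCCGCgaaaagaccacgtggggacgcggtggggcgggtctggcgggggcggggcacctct
POLD1 (chr19:50384073-50384322, plus strand): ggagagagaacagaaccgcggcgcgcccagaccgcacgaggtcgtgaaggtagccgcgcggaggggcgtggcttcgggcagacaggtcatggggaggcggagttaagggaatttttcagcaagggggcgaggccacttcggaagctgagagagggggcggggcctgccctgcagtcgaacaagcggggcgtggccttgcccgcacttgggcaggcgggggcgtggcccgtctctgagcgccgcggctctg
MCM7 (chr7:100101398-100101647, minus strand): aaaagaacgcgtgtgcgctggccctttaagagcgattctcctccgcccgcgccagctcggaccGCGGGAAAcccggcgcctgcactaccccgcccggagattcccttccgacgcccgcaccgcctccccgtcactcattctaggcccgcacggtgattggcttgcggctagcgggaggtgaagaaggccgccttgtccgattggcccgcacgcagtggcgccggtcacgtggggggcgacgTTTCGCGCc
PCNA (chr20:5126623-5126872, minus strand): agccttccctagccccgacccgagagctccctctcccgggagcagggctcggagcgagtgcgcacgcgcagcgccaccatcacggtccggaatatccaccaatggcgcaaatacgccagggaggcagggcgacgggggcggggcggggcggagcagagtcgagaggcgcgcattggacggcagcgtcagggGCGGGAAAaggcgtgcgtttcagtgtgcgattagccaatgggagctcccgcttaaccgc
CCNE1 (chr19:29811741-29811990, plus strand): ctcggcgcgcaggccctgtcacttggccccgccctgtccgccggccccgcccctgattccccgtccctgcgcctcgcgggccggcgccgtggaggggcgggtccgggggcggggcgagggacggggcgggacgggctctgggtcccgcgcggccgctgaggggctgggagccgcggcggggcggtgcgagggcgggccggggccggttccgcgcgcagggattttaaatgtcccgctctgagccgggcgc
CDC6 (chr17:40287629-40287878, plus strand): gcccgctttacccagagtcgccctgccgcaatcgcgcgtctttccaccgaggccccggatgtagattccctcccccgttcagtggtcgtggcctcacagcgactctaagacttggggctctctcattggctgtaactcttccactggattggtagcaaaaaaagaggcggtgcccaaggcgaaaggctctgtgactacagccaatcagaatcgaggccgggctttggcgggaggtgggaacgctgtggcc
The MCM7 window held 2 matches, 1 of them ending 2 bases before the start and the other on the strand opposite to the gene. The PCNA window held 1 match, also on the strand opposite to the gene. The second UNG window held 1 match, and the first UNG window and those of POLD1, CCNE1 and CDC6 held none of the exact letters searched. Of the 32 genes, 28 had a promoter entry (not MCM4, MCM5, GINS4 and CCNE2). An E2F match lay in at least 1 window of 11 of these 28 genes (39.3%), against 3.40% of the 27305 genes in the RefSeq table. The box CCAAT, bound by NF-Y and searched on both strands, was in 18 of 28 (64.3%) against 37.0%. TTTGAA, the CHR element known from mitotic promoters, was in 2 of 28 (7.14%) against 16.1%. E2F letters were present in 5 of the 13 genes called in the construct comparison and in 6 of the 15 not called. A match is a run of letters and not a site shown to be bound. Other forms of an E2F site were not searched, so a gene without a match may still hold one. The split by call covers the searched letters only.

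Between the constructs 15 of the 32 genes were higher in the 6 LmnB1 than in the 6 mCherry libraries and 0 were lower (edgeR quasi-likelihood test, adjusted p under 0.05 over 15388 genes). These p-values take libraries as replicates: with clone as a random effect in limma, 0 of the 32 were called and 14 had an unadjusted p under 0.05, and with counts summed per clone 0 were called and 2 had an unadjusted p under 0.05. Of all genes tested 17.8% were called, 8.58% as higher and 9.25% as lower. The median log2 fold change of the 32 genes was 0.32, against 0.00 over all genes, and 31 of them were above 0. In 3 genes (MCM5, MCM7 and GINS3) every LmnB1 library was above every mCherry library, against 3.80% of all genes tested, and in 0 every LmnB1 library was below, against 4.85%. Without mCherry_3 the comparison called 3 genes (MCM5, MCM7 and UNG; 4.32% of all genes), and without mCherry_4 it called 25 (32.5% of all genes); without single libraries it called 4 to 19.

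**Figure D2:**
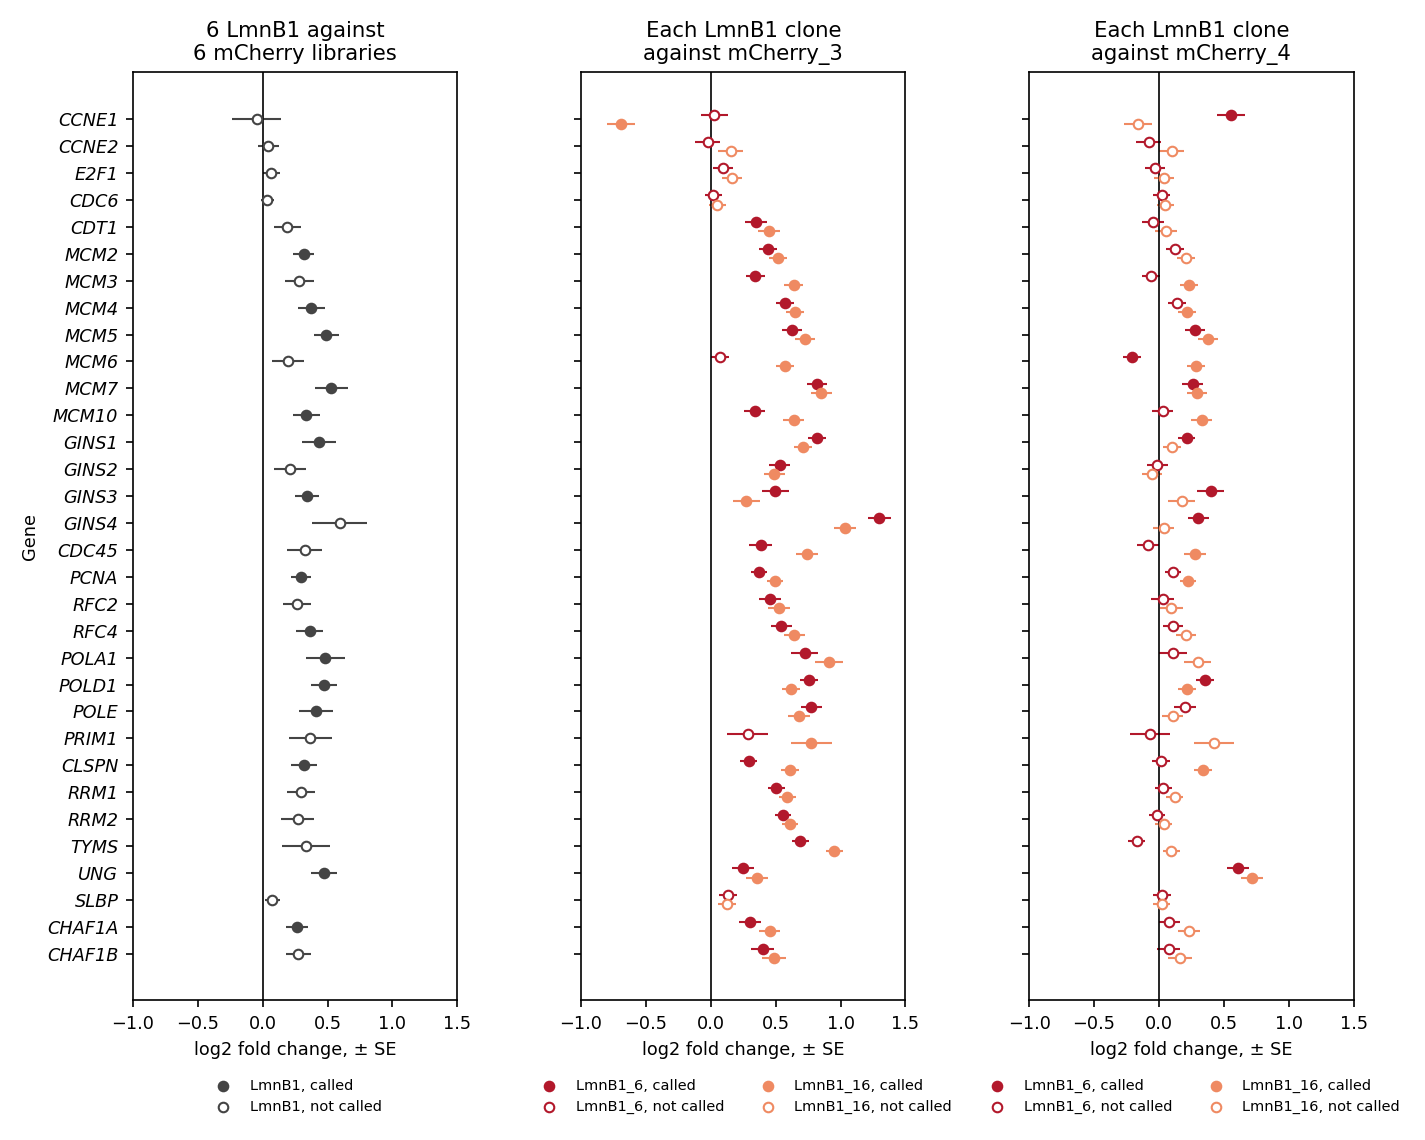
Log2 fold change with its standard error for each of the 32 genes (rows), of the LmnB1 over the mCherry libraries (left), and of LmnB1_6 and LmnB1_16 over mCherry_3 (middle) and over mCherry_4 (right). Filled points passed an edgeR adjusted p of 0.05; most points of the middle panel lie well right of 0, and those of the right panel lie closer to it.

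The MCM2-7 genes encode the subunits of the replicative helicase, and 4 of 6 (MCM2, MCM4, MCM5 and MCM7) were higher in the LmnB1 libraries, with log2 fold changes of 0.20 to 0.53 over the 6. MCM5 stood, in replicates 1, 2 and 3 of each clone, at 190.1, 184 and 166 CPM in LmnB1_6, 192, 199.7 and 186 in LmnB1_16, 104, 124 and 122 in mCherry_3 and 136, 161 and 149 in mCherry_4. The LmnB1 libraries lay above all mCherry libraries, and mCherry_3 was the lowest clone. It had the smallest adjusted p of the 32 genes (log2 fold change 0.49 with SE 0.09, adjusted p = 0.00621 by edgeR). MCM7 stood at 387, 388 and 345 CPM in LmnB1_6, 379.9, 378 and 388 in LmnB1_16, 179, 227 and 229 in mCherry_3 and 305, 323 and 308 in mCherry_4. Again no LmnB1 library reached down to an mCherry library, and replicate 1 of mCherry_3 was lowest by a wide margin. Its fold was 1.44 (log2 fold change 0.53 with SE 0.13, adjusted p = 0.0168 by edgeR). MCM2 averaged 175 ± 15.1 CPM in LmnB1_6, 184 ± 3.53 in LmnB1_16, 129 ± 9.39 in mCherry_3 and 159.9 ± 7.94 in mCherry_4 (SD, n = 3; log2 fold change 0.31 with SE 0.08, adjusted p = 0.0236 by edgeR), and the ranges of the constructs overlapped. MCM4 averaged 316 ± 23.7 CPM in LmnB1 and 243 ± 40.5 CPM in mCherry (SD, n = 6; log2 fold change 0.38 with SE 0.10, adjusted p = 0.0271 by edgeR).

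MCM3 did not pass the threshold (log2 fold change 0.28 with SE 0.11, adjusted p = 0.0988 by edgeR), with 238 ± 30.7 CPM in LmnB1 and 196 ± 30.8 CPM in mCherry (SD, n = 6), and neither did MCM6 (log2 fold change 0.20 with SE 0.12, adjusted p = 0.289 by edgeR). For MCM6 the libraries held 114, 112 and 99.2 CPM in LmnB1_6, 147, 166 and 147 in LmnB1_16, 96.6, 109.8 and 103 in mCherry_3 and 125, 129 and 123 in mCherry_4. LmnB1_16 was above every other clone, mCherry_4 came next, and LmnB1_6 overlapped mCherry_3. The difference between the LmnB1 clones passed the test (log2 fold change 0.50 with SE 0.07, adjusted p = 2.39e-05 by edgeR for LmnB1_16 against LmnB1_6).

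Of the 6 genes for helicase activation, MCM10 (which helps start the fork), GINS1 and GINS3 were higher in LmnB1, and GINS2, GINS4 and CDC45 did not pass. GINS4 had the largest fold change of all 32 genes and the widest spread among clones, a 2.47-fold gap between the highest and the lowest. It stood at 67.7, 67.7 and 56.3 CPM in LmnB1_6, 53.8, 51.96 and 53.2 in LmnB1_16, 23.9, 27.6 and 26.2 in mCherry_3 and 51.9, 55.97 and 47.2 in mCherry_4. All 3 mCherry_3 libraries were near a common low level, and mCherry_4 overlapped LmnB1_16 and lay just below LmnB1_6. Across constructs it missed the threshold (log2 fold change 0.59 with SE 0.21, adjusted p = 0.0694 by edgeR), while each clone contrast with mCherry_3 passed it, with log2 fold changes of 1.30 for LmnB1_6, 1.03 for LmnB1_16 and 1.00 for mCherry_4. GINS1 averaged 50.9 ± 1.75 CPM in LmnB1_6, 47.1 ± 2.82 in LmnB1_16, 28.8 ± 1.78 in mCherry_3 and 43.9 ± 1.34 in mCherry_4 (SD, n = 3; log2 fold change 0.43 with SE 0.13, adjusted p = 0.0406 by edgeR). The constructs overlapped only between LmnB1_16 and mCherry_4. MCM10 averaged 49.2 ± 2.01 CPM in LmnB1_6, 60.5 ± 7.92 in LmnB1_16, 38.9 ± 1.46 in mCherry_3 and 48.1 ± 1.97 in mCherry_4 (log2 fold change 0.33 with SE 0.10, adjusted p = 0.0439 by edgeR), highest in LmnB1_16, and LmnB1_6 overlapped mCherry_4. GINS3, a low gene, stood at 32.2, 31.2 and 27.5 CPM in LmnB1_6, 24.1, 28.96 and 24.7 in LmnB1_16, 18.3, 23.7 and 22.3 in mCherry_3 and 23.5, 21.7 and 23.5 in mCherry_4. The groups did not overlap, but the lowest LmnB1 library was close to the highest mCherry library (log2 fold change 0.34 with SE 0.09, adjusted p = 0.0238 by edgeR). CDC45, the partner of GINS and MCM in the active helicase, averaged 45.4 ± 7.22 CPM in LmnB1 and 36.3 ± 6.56 CPM in mCherry (SD, n = 6; log2 fold change 0.32 with SE 0.13, adjusted p = 0.107 by edgeR), and GINS2 averaged 48.5 ± 3.41 CPM in LmnB1 and 41.9 ± 8.76 CPM in mCherry (log2 fold change 0.21 with SE 0.12, adjusted p = 0.24 by edgeR).

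Among the clamp and its loader, PCNA and RFC4 were higher in LmnB1, and RFC2 was not called (log2 fold change 0.26 with SE 0.11, adjusted p = 0.106 by edgeR). PCNA, the ring that tethers polymerases to DNA, stood at 233, 220.1 and 198 CPM in LmnB1_6, 236, 232 and 240.0 in LmnB1_16, 157, 172 and 173 in mCherry_3 and 201, 205 and 199 in mCherry_4. All mCherry_3 libraries were below the rest, and mCherry_4 overlapped LmnB1_6 through replicate 3 of that clone (log2 fold change 0.30 with SE 0.07, adjusted p = 0.0205 by edgeR). RFC4, a small subunit of the clamp loader, averaged 40.7 ± 2.91 CPM in LmnB1 and 31.7 ± 5.41 CPM in mCherry (SD, n = 6; log2 fold change 0.36 with SE 0.11, adjusted p = 0.0347 by edgeR). Over mCherry_4 alone RFC4 was not called in LmnB1_6 (log2 fold change 0.11) or LmnB1_16 (0.21).

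Of the polymerase genes, POLA1, POLD1 and POLE, the catalytic subunits of DNA polymerases alpha, delta and epsilon, were higher in LmnB1, and PRIM1, the catalytic subunit of primase, was not called (log2 fold change 0.37 with SE 0.17, adjusted p = 0.14 by edgeR). POLD1 stood at 112, 107 and 105 CPM in LmnB1_6, 97.8, 90.2 and 106 in LmnB1_16, 59.8, 64.4 and 67.3 in mCherry_3 and 82.04, 80.5 and 90.8 in mCherry_4. LmnB1_6 was the highest clone and mCherry_3 the lowest, and the constructs overlapped by 1 library on each side (log2 fold change 0.47 with SE 0.10, adjusted p = 0.00944 by edgeR). POLA1 averaged 59.6 ± 8.73 CPM in LmnB1 and 42.6 ± 9.99 CPM in mCherry (SD, n = 6; log2 fold change 0.48 with SE 0.15, adjusted p = 0.0432 by edgeR). POLE averaged 118 ± 9.35 CPM in LmnB1 and 88.3 ± 20.3 CPM in mCherry (SD, n = 6; log2 fold change 0.41 with SE 0.13, adjusted p = 0.0458 by edgeR). Both had adjusted p-values just under the threshold and the spread within mCherry was wide, with a gap between its clones. POLA1 averaged 33.7 ± 2.76 CPM in mCherry_3 and 51.5 ± 1.96 in mCherry_4 (SD, n = 3). POLE averaged 71.0 ± 4.38 CPM in mCherry_3 and 105.6 ± 10.6 in mCherry_4 (SD, n = 3). Neither gene was called in LmnB1_6 or in LmnB1_16 against mCherry_4. PRIM1 stood at 21.3, 19.4 and 12.05 CPM in LmnB1_6, 23.2, 25.6 and 24.95 in LmnB1_16, 12.6, 15.6 and 14.9 in mCherry_3 and 18.4, 19.6 and 16.99 in mCherry_4. Replicate 3 of LmnB1_6 was the lowest of all 12 libraries, and LmnB1_16 was above every other library. CLSPN, which encodes claspin, an adaptor of the checkpoint kinase CHK1 at stalled forks, was higher in LmnB1 (log2 fold change 0.32 with SE 0.10, adjusted p = 0.0422 by edgeR), with 84.3 ± 2.84 CPM in LmnB1_6, 105 ± 8.61 in LmnB1_16, 68.9 ± 1.90 in mCherry_3 and 83.2 ± 6.13 in mCherry_4 (SD, n = 3).

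UNG, the glycosylase that removes uracil from DNA, was the one gene among 4 for nucleotides and uracil removal that was called. It stood at 74.5, 68.8 and 59.4 CPM in LmnB1_6, 70.8, 75.9 and 71.4 in LmnB1_16, 54.3, 60.6 and 55.5 in mCherry_3 and 43.7, 48.4 and 40.6 in mCherry_4. Here mCherry_4 was the lowest clone, below every other library, and the constructs overlapped only between replicate 3 of LmnB1_6 and replicate 2 of mCherry_3. The construct difference passed the test (log2 fold change 0.47 with SE 0.10, adjusted p = 0.00867 by edgeR), and UNG was lower in mCherry_4 than in mCherry_3 (log2 fold change -0.36 with SE 0.08, adjusted p = 0.00304 by edgeR). MCM5 and UNG were called in 24 of 26 fits of the construct comparison, counting each alternative and each omitted clone or library, all but the fits with clone as the unit or as a random effect.

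The ribonucleotide reductase genes RRM1 (log2 fold change 0.29 with SE 0.11, adjusted p = 0.0717 by edgeR) and RRM2 (log2 fold change 0.27 with SE 0.12, adjusted p = 0.147 by edgeR), which make deoxynucleotides, did not pass in the construct comparison, nor did TYMS (log2 fold change 0.33 with SE 0.18, adjusted p = 0.217 by edgeR), which makes the thymidine nucleotide. TYMS stood at 217, 205 and 182 CPM in LmnB1_6, 242, 234 and 249.7 in LmnB1_16, 116, 131 and 128 in mCherry_3 and 222, 232 and 226 in mCherry_4. The mCherry_4 libraries lay between those of LmnB1_6 and LmnB1_16, and mCherry_3 was far below. RRM2 averaged 453 ± 38.8 CPM in LmnB1_6, 469.5 ± 0.788 in LmnB1_16, 308 ± 20.05 in mCherry_3 and 458 ± 8.32 in mCherry_4 (SD, n = 3). The mean of mCherry_4 thus lay between those of the LmnB1 clones.

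For chromatin assembly, CHAF1A, the large subunit of the histone chaperone CAF-1, was higher in LmnB1 (log2 fold change 0.27 with SE 0.08, adjusted p = 0.0431 by edgeR), at 98.1 ± 9.04 CPM in LmnB1 and 81.6 ± 8.81 CPM in mCherry (SD, n = 6). Over mCherry_4 alone CHAF1A was not called in LmnB1_6 (log2 fold change 0.08) or LmnB1_16 (0.23). Its partner CHAF1B had nearly the same fold change and missed the threshold (log2 fold change 0.27 with SE 0.09, adjusted p = 0.0618 by edgeR). SLBP, which binds the stem loop of histone mRNA, was at 115 ± 7.74 CPM in LmnB1 and 109 ± 6.13 CPM in mCherry and was not called (log2 fold change 0.07 with SE 0.06, adjusted p = 0.372 by edgeR).

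**Figure D3:**
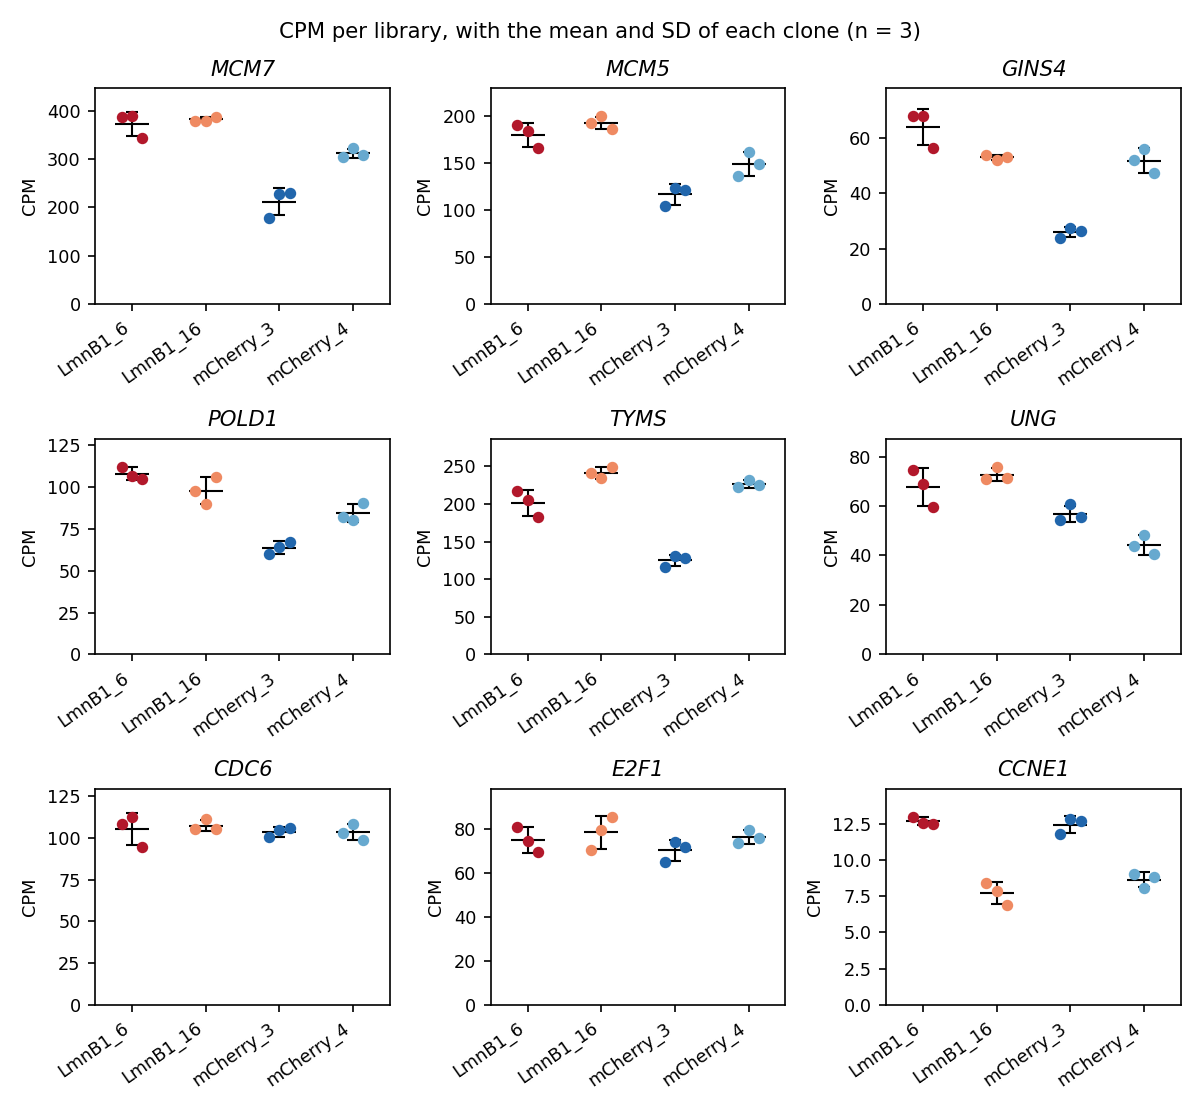
CPM of 9 genes in each library (points), with the mean and SD of each clone (black, n = 3); each vertical axis starts at 0. MCM7, MCM5, POLD1, GINS4 and TYMS are lowest in mCherry_3, UNG is lowest in mCherry_4, CDC6 and E2F1 are level, and CCNE1 splits the clones of each construct.

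The cyclin E genes, E2F1 and the loading factors were called by neither edgeR nor DESeq2 in the construct comparison, and the smallest unadjusted edgeR p among the 5 was 0.0846, for CDT1. CDC6 was the most even gene of all 32. It stood at 109, 113 and 94.5 CPM in LmnB1_6, 105, 111 and 105 in LmnB1_16, 100.5, 105 and 106 in mCherry_3 and 103, 109 and 98.97 in mCherry_4. The clones overlapped fully, and the highest clone mean was 1.04-fold the lowest (log2 fold change 0.04 with SE 0.05, adjusted p = 0.643 by edgeR). E2F1, an activator of this gene set, averaged 75.1 ± 5.89 CPM in LmnB1_6, 78.6 ± 7.56 in LmnB1_16, 70.3 ± 4.76 in mCherry_3 and 76.5 ± 3.01 in mCherry_4 (SD, n = 3; log2 fold change 0.07 with SE 0.07, adjusted p = 0.504 by edgeR). The highest clone was 1.10 times the lowest for SLBP, 1.12 times for E2F1 and 1.13 times for CCNE2 (cyclin E2). CDT1, the partner of CDC6 in helicase loading, stood at 48.4, 50.7 and 44.8 CPM in LmnB1_6, 48.6, 52.7 and 52.9 in LmnB1_16, 35.5, 39.99 and 37.5 in mCherry_3 and 47.4, 56.1 and 44.9 in mCherry_4. All mCherry_3 libraries were below the rest, and mCherry_4 spanned the LmnB1 range. It was not called between constructs (log2 fold change 0.19 with SE 0.10, adjusted p = 0.206 by edgeR).

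CCNE1 split the clones of both constructs. It stood at 13.01, 12.6 and 12.6 CPM in LmnB1_6, 8.42, 7.87 and 6.92 in LmnB1_16, 11.8, 12.9 and 12.7 in mCherry_3 and 9.07, 8.06 and 8.81 in mCherry_4. LmnB1_6 and mCherry_3 were high, LmnB1_16 and mCherry_4 were low, and the high and low clones did not overlap. Within constructs it was lower in LmnB1_16 than in LmnB1_6 (log2 fold change -0.72 with SE 0.11, adjusted p = 4.64e-05 by edgeR) and lower in mCherry_4 than in mCherry_3 (log2 fold change -0.53 with SE 0.10, adjusted p = 0.000816 by edgeR). Between the constructs it was not called (log2 fold change -0.05 with SE 0.19, adjusted p = 0.885 by edgeR), and this fold change was above 0 in 7 of 26 fits.

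The clone contrasts compare single clones, and those that share a clone share its libraries. Against mCherry_3, 25 of the 32 genes were higher and 0 lower in LmnB1_6, where 52.8% of all genes were called (26.0% higher and 26.8% lower). In LmnB1_16, 27 were higher and 1 (CCNE1) lower than in mCherry_3, where 44.4% of all genes were called (22.5% higher and 22.0% lower). The median log2 fold change of the 32 genes was 0.42 for LmnB1_6 and 0.60 for LmnB1_16. Against mCherry_4 the counts were smaller. LmnB1_6 had 8 genes higher (CCNE1, MCM5, MCM7, GINS1, GINS3, GINS4, POLD1 and UNG) and 1 lower (MCM6), with 37.2% of all genes called (17.1% higher and 20.1% lower) and a median of 0.06. LmnB1_16 had 11 higher (MCM3, MCM4, MCM5, MCM6, MCM7, MCM10, CDC45, PCNA, POLD1, CLSPN and UNG) and 0 lower, with 15.7% of all genes called (6.67% higher) and a median of 0.19. Without single libraries the number called ran from 5 (without replicate 1 of mCherry_4) to 11 in LmnB1_6 and from 5 (without the same library) to 9 in LmnB1_16.

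The size of the difference depended on the control clone. Values are set side by side for 4 genes described above, the only ones called as higher in both LmnB1 clones against mCherry_4. For UNG the log2 fold change over mCherry_4 was 0.61 in LmnB1_6 and 0.72 in LmnB1_16, and over mCherry_3 it was 0.25 in LmnB1_6 and 0.36 in LmnB1_16. For MCM5 the log2 fold change over mCherry_4 was 0.28 in LmnB1_6 and 0.37 in LmnB1_16, and over mCherry_3 it was 0.62 in LmnB1_6 and 0.72 in LmnB1_16. UNG thus differed more from mCherry_4, and MCM5 more from mCherry_3. MCM7 had log2 fold changes of 0.26 in LmnB1_6 and 0.29 in LmnB1_16 over mCherry_4, and of 0.82 in LmnB1_6 and 0.85 in LmnB1_16 over mCherry_3. POLD1 had 0.35 in LmnB1_6 and 0.21 in LmnB1_16 over mCherry_4, and 0.76 in LmnB1_6 and 0.62 in LmnB1_16 over mCherry_3. All of these passed the test (the edgeR adjusted p of POLD1 in LmnB1_16 against mCherry_4 was 0.048, the nearest to the threshold). Against mCherry_4 this follows from the choice of the genes and is no further result. The share of all genes called in all of these contrasts was not computed.

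The clones of a construct differed from each other as well. In mCherry_4 against mCherry_3, 24 genes were higher and 2 (CCNE1 and UNG) lower, where 37.4% of all genes were called (19.9% higher and 17.4% lower), with a median log2 fold change of 0.37. GINS4 (log2 fold change 1.00 with SE 0.09, adjusted p = 1.87e-07 by edgeR) and TYMS (log2 fold change 0.86 with SE 0.07, adjusted p = 5.44e-08 by edgeR) had the largest differences. In LmnB1_16 against LmnB1_6, 7 genes were higher and 2 (CCNE1 and GINS4) lower, where 34.4% of all genes were called (17.8% higher and 16.6% lower), with a median of 0.09. Genes of the fork were among the 7, which were MCM3, MCM6, MCM10, CDC45, PRIM1, CLSPN and TYMS, with log2 fold changes from 0.26 for TYMS to 0.50 for MCM6.

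The MCM2-7 subunits act as a ring with each subunit present once, and their deposited TPM were added up per library. The sum was 775 ± 39.6 TPM in LmnB1_6, 880.9 ± 29.001 in LmnB1_16, 594 ± 74.3 in mCherry_3 and 700.3 ± 17.5 in mCherry_4 (SD, n = 3). MCM7 made up 31.5% ± 0.189 of it in LmnB1_6, 29.6% ± 0.218 in LmnB1_16, 26.0% ± 1.26 in mCherry_3 and 29.2% ± 0.540 in mCherry_4. Its share was highest in LmnB1_6 and lowest in mCherry_3. MCM6 was the smallest part, at 5.68% ± 0.044 in LmnB1_6, 7.34% ± 0.705 in LmnB1_16, 7.77% ± 0.596 in mCherry_3 and 7.31% ± 0.235 in mCherry_4, and was lowest in LmnB1_6. MCM4 TPM rest on a deposited effective length that ranged from 1787 to 3175 bases between libraries (1.78-fold), so its TPM and its share are less sure than its CPM; the effective length of MCM7 ranged from 2100.4 to 2172 bases.

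**Figure D4:**
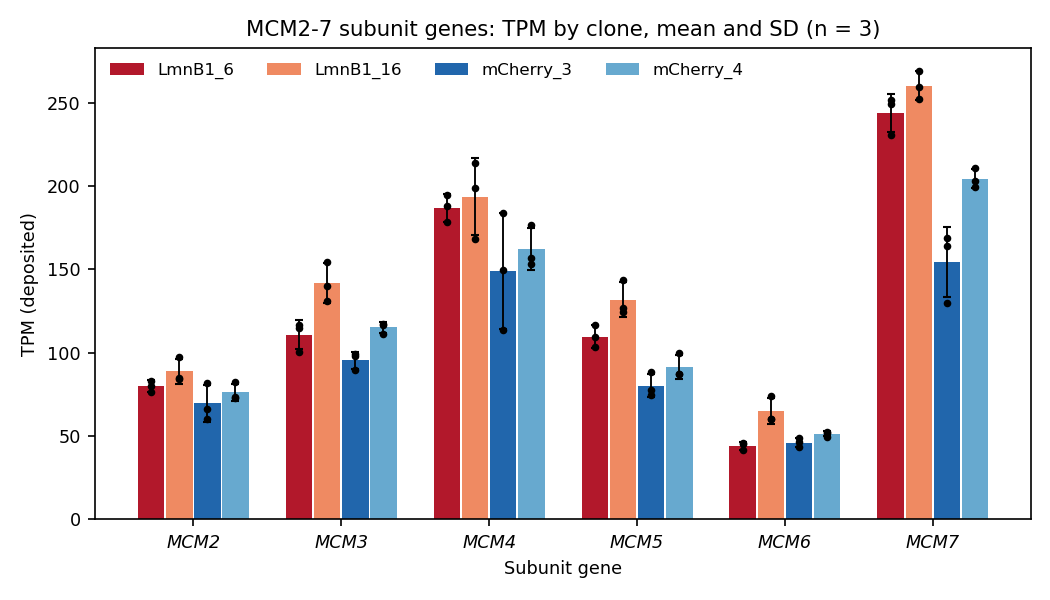
Deposited TPM of the MCM2-7 subunit genes by clone (bars, mean; error bars, SD; points, the 3 libraries). MCM7 and MCM4 are highest and MCM6 lowest in every clone, and LmnB1_16 has the highest mean for all of the subunits shown.

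Ratios of deposited TPM compare partner genes within a library. CHAF1A over CHAF1B was 2.61 ± 0.237 in LmnB1_6, 2.72 ± 0.308 in LmnB1_16, 2.62 ± 0.114 in mCherry_3 and 2.65 ± 0.314 in mCherry_4 (SD, n = 3), differences within the SD of a clone. CCNE1 over CCNE2 was 0.499 ± 0.0361 in LmnB1_6, 0.288 ± 0.0354 in LmnB1_16, 0.5002 ± 0.0749 in mCherry_3 and 0.356 ± 0.0368 in mCherry_4, so cyclin E2 mRNA was the more abundant in each. UNG over PCNA was 0.175 ± 0.00551 in LmnB1_6, 0.174 ± 0.00854 in LmnB1_16, 0.189 ± 0.00919 in mCherry_3 and 0.122 ± 0.0101 in mCherry_4, and was lowest in mCherry_4. RRM2 over RRM1 was 2.56 ± 0.167 in LmnB1_6, 2.69 ± 0.284 in LmnB1_16, 2.57 ± 0.121 in mCherry_3 and 3.14 ± 0.0303 in mCherry_4, and was highest in mCherry_4.

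Other genes of the pathway were taken from 4 lists with no gene of the 32: licensing and firing (16 genes), polymerases, clamp and fork (24), nucleotide supply (10) and chromatin assembly and maintenance (12). Of these 62 genes 27 were higher and 2 lower in the construct comparison, with a median log2 fold change of 0.27, beside 17.8% of all genes called. With clone as a random effect 2 were higher and 0 lower, and without single libraries 10 (without replicate 3 of mCherry_3) to 32 were higher, with 14 without replicate 2 and 17 without replicate 1 of mCherry_3 and 17 without replicate 1 or 2 of LmnB1_6. The higher genes were 4 of licensing and firing, 14 of polymerases, clamp and fork, 1 of nucleotide supply and 8 of chromatin assembly. The lower genes, named after their values were seen, were POLD4 (log2 fold change -0.54) and POLE4 (log2 fold change -0.30), small accessory subunits of polymerases delta and epsilon. Without mCherry_3 the 62 genes gave 6 higher and 0 lower, without mCherry_4 they gave 51 higher and 1 lower. In mCherry_4 against mCherry_3, 45 of the 62 were higher and 2 lower, beside 37.4% of all genes called.

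Within licensing the called genes were RECQL4, a helicase needed for origin firing, DBF4, the activating subunit of the CDC7 kinase, ORC1, the largest origin recognition subunit, and MCMBP, a binding partner of MCM subunits. Their log2 fold changes ran from 0.24 for MCMBP to 0.61 for DBF4. DBF4 averaged 36.2 ± 4.83 CPM in LmnB1_6, 35.03 ± 3.72 in LmnB1_16, 17.9 ± 0.180 in mCherry_3 and 28.9 ± 2.33 in mCherry_4 (SD, n = 3). At the fork RFC3 stood at 65.5, 66.3 and 57.6 CPM in LmnB1_6, 65.1, 67.2 and 63.5 in LmnB1_16, 37.97, 40.02 and 38.96 in mCherry_3 and 48.4, 49.8 and 44.5 in mCherry_4. All LmnB1 libraries were above all mCherry libraries (log2 fold change 0.57 with SE 0.08, adjusted p = 0.000788 by edgeR). The loader subunits RFC5 (log2 fold change 0.56) and RFC1 (0.23) and TIMELESS (0.46), a fork protection factor, were also higher. In nucleotide supply the one called gene was DCTPP1, a dCTP pyrophosphatase (log2 fold change 0.31 with SE 0.09, adjusted p = 0.0323 by edgeR).

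In chromatin assembly and maintenance UHRF1, which recruits DNMT1 to newly replicated DNA, stood at 292, 286 and 273 CPM in LmnB1_6, 281, 277 and 279 in LmnB1_16, 159, 183 and 178 in mCherry_3 and 209, 216 and 202 in mCherry_4. Every LmnB1 library was well above every mCherry library, and UHRF1 had the smallest adjusted p of the genes named here other than LMNB1 (log2 fold change 0.56 with SE 0.07, adjusted p = 0.000574 by edgeR). DNMT1, the maintenance DNA methyltransferase, averaged 368 ± 14.7 CPM in LmnB1 and 271 ± 48.05 CPM in mCherry (SD, n = 6; log2 fold change 0.44 with SE 0.10, adjusted p = 0.0137 by edgeR). The histone chaperone NASP (log2 fold change 0.27) and RBBP4 (0.25), a subunit that CAF-1 shares with other complexes, were higher too.

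Of 32 listed regulators of G1/S, 31 were tested, and 8 were higher and 1 lower in LmnB1, beside 17.8% of all genes called. With clone as a random effect, with counts summed per clone and without mCherry_3, 0 were higher and 0 lower. Without single libraries 1 to 8 were higher, 1 or 2 of them when any library of mCherry_3 or LmnB1_6 was left out, and 5 without replicate 2 or 3 of LmnB1_16. The lower one was CDKN1A, the CDK inhibitor p21, which stood at 183, 204 and 286 CPM in LmnB1_6, 174, 163 and 214 in LmnB1_16, 363, 301 and 280.1 in mCherry_3 and 299, 308 and 319 in mCherry_4. LmnB1_16 had the lowest mean and both mCherry clones were high, and replicate 3 of LmnB1_6 overlapped the mCherry range (log2 fold change -0.61 with SE 0.12, adjusted p = 0.00766 by edgeR). Its log2 fold change was -0.49 in LmnB1_6 and -0.78 in LmnB1_16 over mCherry_3, and -0.46 in LmnB1_6 and -0.75 in LmnB1_16 over mCherry_4, all called. Between the mCherry clones it was not called (log2 fold change -0.03 with SE 0.14, adjusted p = 0.905 by edgeR). CDK4, the kinase partner of D cyclins, was higher in LmnB1 (log2 fold change 0.39 with SE 0.10, adjusted p = 0.0196 by edgeR), as was RBL2, a retinoblastoma relative that acts in resting cells (log2 fold change 0.32 with SE 0.08, adjusted p = 0.0225 by edgeR). CDKN1C, the inhibitor p57, was called as higher with counts almost confined to LmnB1_6, at 1.67, 1.57 and 2.62 CPM there and at most 0.251 CPM in any other library.

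The list of 20 mitotic genes followed the clones in the same order, with a wider gap. On the centred log2 scale it averaged 0.26 ± 0.11 in LmnB1_6, 0.33 ± 0.06 in LmnB1_16, -0.80 ± 0.09 in mCherry_3 and 0.21 ± 0.07 in mCherry_4 (SD, n = 3). All 20 were higher in mCherry_4 than in mCherry_3, with a median log2 fold change of 1.02, against 0.37 for the 32 genes. In the construct comparison 1 of 20 was called, TTK, a kinase of the spindle checkpoint (log2 fold change 0.57 with SE 0.18, adjusted p = 0.0467 by edgeR), and the median log2 fold change of the 20 was 0.50, beside 17.8% of all genes called. The count was 8 with DESeq2, 20 without mCherry_4, 7 without replicate 1 and 9 without replicate 2 of mCherry_4. It was 0 without mCherry_3, without any one library of mCherry_3, LmnB1_6 or LmnB1_16, and with clone as a random effect. Of 11 tested genes associated with quiescence 1 was higher, CCNG2 (cyclin G2; log2 fold change 0.89), and 1 lower, YPEL5 (log2 fold change -0.62), a share close to the 17.8% of all genes called; with clone as a random effect 0 were higher and 0 lower. That list averaged 0.00 ± 0.17 in LmnB1_6, -0.10 ± 0.04 in LmnB1_16, 0.13 ± 0.04 in mCherry_3 and -0.03 ± 0.11 in mCherry_4.

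**Figure D5:**
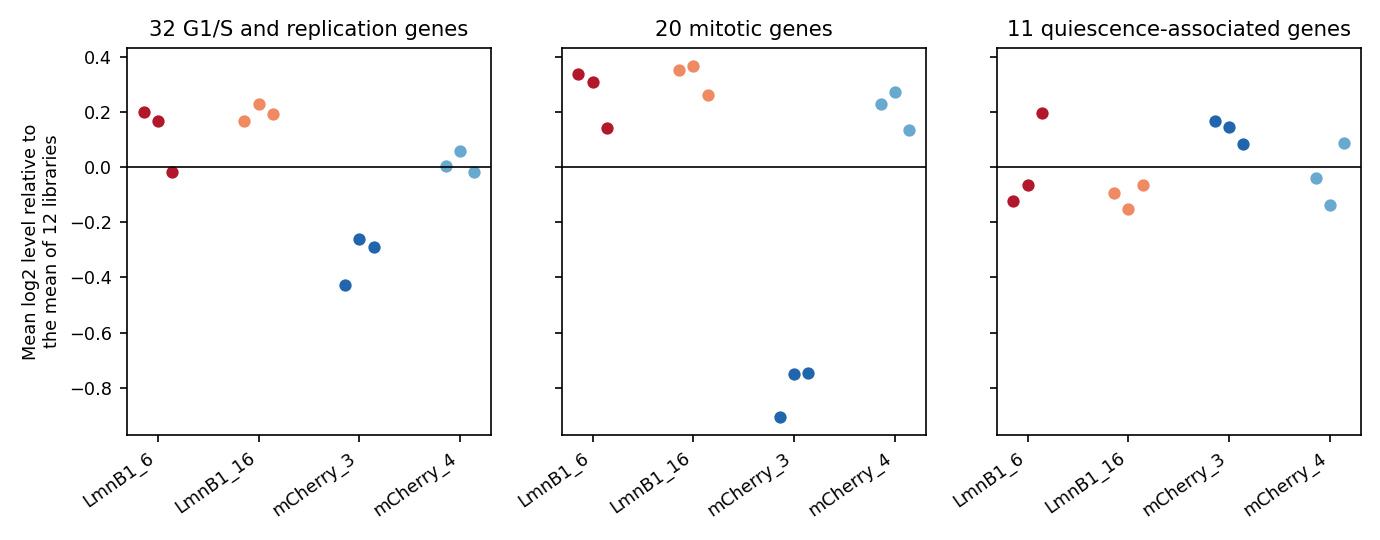
Mean log2 level of the 32 G1/S and replication genes, 20 mitotic genes and 11 genes associated with quiescence in each library, relative to the mean of the 12 libraries (points; no test). In the first and second panels the mCherry_3 libraries lie below all others, and replicate 3 of LmnB1_6 is the lowest of its clone.

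Within clones 2 libraries stood apart for these genes. Replicate 3 of LmnB1_6 was the lowest of its clone in 30 of the 32 genes, against 35.8% of all genes, and replicate 1 of mCherry_3 in 30 of 32, against 38.0%. The mean log2 level of the 32 genes was 0.20, 0.17 and -0.02 in the LmnB1_6 libraries and -0.43, -0.26 and -0.29 in those of mCherry_3. Replicate 3 of LmnB1_6 also had the highest CDKN1A level and the highest total count of its clone (29477253). Replicate 3 was highest for CDKN1A in LmnB1_16 and mCherry_4 too, and for total count in LmnB1_16. These traits were thus not particular to LmnB1_6, although in mCherry_3 replicate 3 had the lowest CDKN1A level. Without the 2 libraries that stood apart, 8 of the 32 genes were called in the construct comparison (5.74% of all genes). Then 13 had all LmnB1 libraries above all mCherry libraries. Leaving out a low LmnB1 library makes such separation easier, and the share of all genes was not computed for it.

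Several of the 32 genes share exon bases with a neighbour in GENCODE 29, with the strand setting of the counts not given in the sources used here. Their reads may not be told apart from those of the neighbour. CCNE2 shares 1629 bases with INTS8 (51.0 CPM), TYMS 967 bases with ENOSF1 (10.3 CPM), MCM7 392 bases with AP4M1 (14.8 CPM) and MCM2 1113 bases with an unnamed antisense gene (15.5 CPM). PRIM1 shares 33 bases on the same strand with NACA, whose level was 374 CPM against 18.6 CPM for PRIM1, and RFC4 shares 21 bases with EIF4A2 (312 CPM). GINS3, GINS4, CLSPN, POLD1 and the CAF-1 genes have overlaps as well, and these values are uncertain to that extent.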

How the data were processed

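Messenger RNA was measured in 12 libraries of 4 clones. The authors deposited, per the file headers, estimated counts (unscaled), TPM scaled by effective length, and gene lengths; the submitters' processing notes name STAR, Salmon, DESeq2 and GRCh38 (hg38), without versions. The deposited counts were rounded, since 31.3% to 32.6% of detected genes had a fractional value. Of 60708 identifiers 58440 matched GENCODE 29 and 60507 had a symbol.

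Genes kept by filterByExpr by clone (minimum count 10, minimum total 15) were scaled with TMM and tested with edgeR 4.0.16 in R 4.3.3, with construct (6 against 6) or clone as the groups, and adjusted over 15388 genes at 0.05. CPM are these scaled counts. Standard errors (SE) were derived from the fold change and its F statistic. The p-values reflect spread among libraries, not among independent clones. Alternatives were RLE factors, DESeq2 1.42.0, other filters, a replicate block, limma 3.58.1 on log2(TPM + 1), counts summed per clone, clone as a random effect, and each clone or library left out. No libraries of a clone matched within sampling noise (chi-square per degree of freedom at least 3.86). Code was tested on simulated counts. The 32 genes and all lists were chosen with earlier results of these data known. Genes named are the 32, LMNB1 and up to 4 called genes per list, by adjusted p, with POLD4 and POLE4 added after their values were seen. Promoters come from RefSeq GRCh38.p14.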

Additional observations from a re-analysis of the deposited data

Results flagged for a closer look

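In 4 of 64 groups of 6 libraries the lowest library stood far from the others relative to the range of its construct. Chance alone gives about 1 in 20 for independent values, which libraries of a clone are not, and 4 of 64 is close to that rate. MCM7 was at 344.6 CPM, RRM2 at 408.3 CPM and CHAF1B at 39.8 CPM in replicate 3 of LmnB1_6, and GINS3 was at 18.3 CPM in replicate 1 of mCherry_3. These are the libraries that were lowest of their clone in 30 of the 32 genes.

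In 9 of the 32 genes (28.1%) the clones LmnB1_16 and LmnB1_6 differed by the test of LmnB1_16 against LmnB1_6. Of all genes tested 34.4% were called in that contrast, so such differences were not particular to this list. For these 9 genes the differences of the LmnB1 clones from any mCherry clone differ by the same amount. The log2 fold changes were 0.50 for MCM6, 0.49 for PRIM1, 0.36 for CDC45, 0.32 for CLSPN, 0.30 for MCM10, 0.29 for MCM3, 0.26 for TYMS, -0.27 for GINS4 and -0.72 for CCNE1 (edgeR adjusted p from 2.39e-05 for MCM6 to 0.02 for PRIM1).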

How the results depend on the processing

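The count of 15 genes called in the construct comparison depended most on how clones and libraries enter it. It was 15 with RLE factors and with a mean of at least 1 CPM, 18 with DESeq2 and 10 with log2(TPM + 1), but 9 with no filter on low counts, 7 with the replicate number as a block, 0 with counts summed per clone and 0 with clone as a random effect (consensus correlation 0.62). Correlations of same-numbered libraries ran from -0.05 to 0.18, and not every library correlated best with its own number. The highest were among the replicate 3 libraries of LmnB1_6, LmnB1_16 and mCherry_4 (0.12, 0.12 and 0.18). Whether the numbers pair the samples was not tested further. With the block the share of all genes called between the constructs was 10.7% (17.8% without it), the G1/S regulators called higher were 3 (8 without it), and the 1 higher gene of nucleotide supply, the 1 mitotic gene and the 2 lower replication genes were not called; the counts of the 32 genes in the clone contrasts moved by less than 1.5 times. Without a clone the count was 7 (LmnB1_6), 5 (LmnB1_16), 3 (mCherry_3) and 25 (mCherry_4), and without 1 library it ran from 4 to 19, below 10 without any mCherry_3 library, replicate 1 or 2 of LmnB1_6 or replicate 1 or 3 of LmnB1_16. Without both libraries that were lowest in 30 genes, an alternative chosen after seeing the data, it was 8. The share of all genes called between the constructs moved between settings as well. It was 18.1% with RLE factors, and is given above without mCherry_3, without mCherry_4 and without both of these libraries. Changes in the count are thus not particular to the 32 genes.

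The median log2 fold change of 0.32 became 0.23 without LmnB1_16, 0.16 without mCherry_3 and 0.50 without mCherry_4, and ran from 0.26 to 0.35 without 1 library. The 3 genes with all LmnB1 above all mCherry libraries became 6 on TPM, and 20, 6 and 24 without LmnB1_6, LmnB1_16 and mCherry_4. They became 3 to 13 without 1 library (13 without replicate 3 of LmnB1_6), and 13 without both libraries. Fewer libraries make such separation easier, and the share of all genes was not computed in these settings. On TPM, 16 genes were called in LmnB1_6 against mCherry_3 (25 on counts) and 15 in mCherry_4 against mCherry_3 (26 on counts). The shares of all genes called on TPM are not given here, so the drop cannot be set against them. Without 1 library the counts ran from 5 to 11 in LmnB1_6 against mCherry_4 (9 in all) and from 5 to 9 in LmnB1_16 against mCherry_4 (11 in all); the lowest values came without mCherry_4 replicate 1. Signs turned, with none called, for CCNE2 (-0.051) and CDC6 (-0.0076) on TPM; CCNE1 (0.27), CCNE2 (-0.050) and MCM6 (-0.075) without LmnB1_16; and CCNE1 (0.25), GINS2 (-0.029) and TYMS (-0.029) without mCherry_3. Without 1 library CCNE1 ran from -0.13 to 0.044 and CCNE2 from -0.0025 to 0.084. The causes were not tested. Depth of 20598852 to 29477253 counts limits the low genes most.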
